A study of Mus musculus with 8 samples.

Results

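The collagens described here are the chains that build fibrils, fibril surfaces, beaded filaments, hexagonal networks and membrane anchors, without those of the basement membrane. They were taken from the gene symbols alone, as every mouse gene named Col with a number, the letter a and a number, leaving out Col4a1 to Col4a6, Col15a1 and Col18a1. Of the 43346 gene identifiers in each count file, 44 matched the name and 36 remained. By class, 11 were fibrillar, 9 were fibril-associated collagens with interrupted triple helices (FACIT), 6 were beaded, 4 were transmembrane, 3 were network-forming, and 3 (Col7a1, Col26a1 and Col28a1) fell outside these classes.

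RNA of notochord-derived cells (NDCs) was sequenced at embryonic day 12.5 (E12.5) and on the day of birth (P0), with 4 litters at each stage. All animals carried Shh-cre and the ROSA:YFP reporter, so that cells with a history of Shh promoter activity, and their progeny, were marked by YFP. E12.5 notochords were dissected whole into lysis reagent without sorting, whereas P0 nucleus pulposus (NP) cells were mechanically dissociated, strained and sorted for YFP, and each sample pooled the animals of a litter. Stage and isolation method therefore cannot be told apart, and in such bulk samples fewer cells of a type cannot be told apart from less RNA per cell. The E12.5 litters were NDP10.2, NPD3, NPD4 and NPD9.2, and those of P0 were NPD26, NPD27, NPD28 and NPD30, and values by litter are given in these orders.

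Fibrillar collagens trimerise into a long triple helix, unbroken in most of them, and assemble into the fibrils that carry tension. Type I is the main fibril of bone, tendon and outer annulus fibrosus, and type II, copolymerised with type XI and decorated by the FACIT type IX, is the fibril of cartilage, the notochordal sheath and the NP. Type VI forms beaded filaments around cells, and type X is a network collagen made by hypertrophic chondrocytes.

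The coding sequences of the members, read from Gencode M21 transcripts on GRCm38, show the repeat that defines the family and how the classes differ in it. A codon of the form GGN, which encodes glycine, recurs with 2 other codons between. Among the 11 fibrillar genes the longest uninterrupted run of such repeats had a median of 338 repeats and ranged from 216 in Col24a1 and 217 in Col27a1 to 344 in Col3a1. It was 32 to 113 repeats in the FACIT genes, 37 to 87 in the beaded, 59 to 60 in the network and 40 to 55 in the transmembrane genes. Runs of at least 5 repeats numbered 2 or 3 per fibrillar gene and 2 to 21 per FACIT gene. The stretches of 90 bases that follow set a fibrillar, a beaded and a network chain, all higher at P0, beside a FACIT chain that was lower. Capitals mark the GGN codons counted in a run, and in Col9a2 they lose their register where the first run ends and the second begins. The ggt between these runs, left in lower case because the search resumed after it, is also a GGN codon in the register of the second run. A run that closely follows another can therefore be counted a repeat short.
Col1a2, codons 589 to 618: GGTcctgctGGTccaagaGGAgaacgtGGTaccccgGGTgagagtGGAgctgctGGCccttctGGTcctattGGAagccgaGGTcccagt
Col6a1, codons 370 to 399: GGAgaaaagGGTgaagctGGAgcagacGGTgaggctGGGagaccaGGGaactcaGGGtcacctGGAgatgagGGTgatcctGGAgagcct
Col10a1, codons 377 to 406: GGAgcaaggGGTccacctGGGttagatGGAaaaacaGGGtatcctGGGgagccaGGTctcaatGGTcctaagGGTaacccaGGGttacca
Col9a2, codons 101 to 130: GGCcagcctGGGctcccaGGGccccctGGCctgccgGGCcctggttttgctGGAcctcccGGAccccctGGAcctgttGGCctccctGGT

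Depth and purity differed among the libraries. Between 4442775 and 8904050 reads per library fell on genes, of which the 36 collagens took from 0.535% up to 1.32% at E12.5, against 0.743% to 2.63% at P0. Reads are given as CPM (counts scaled to a common library total) on library sizes scaled by trimmed mean of M-values (TMM), and 3 reads, the floor used here, corresponded to 0.337 to 0.675 CPM before that scaling. Two-sided calls were made with edgeR's quasi-likelihood test across 15467 genes at a Benjamini-Hochberg adjusted p under 0.05. Of 9 notochord markers, 8 passed the filter, of which 2 (Krt19 and Cd24a) were called higher at P0, 2 (Shh and Foxa1) lower and 4 neither way. The transcription factor T was at 242 to 2323 CPM over all 8 libraries and was not called, while Noto was at no more than 0.433 CPM in any. Shh, whose promoter drives the Cre, fell from 420.3 to 1348 CPM at E12.5 to 0.157 to 11.8 CPM at P0. The E12.5 litter NPD4 stood apart, with a summed level of 9 neural markers of 1794 CPM against 128 to 179 in the other E12.5 litters, and it was the lowest E12.5 litter for 28 of the 34 members tested. NPD30 had a summed level of 14 leukocyte markers of 998 CPM against 5728 to 8938 in the other P0 litters, and it was the highest P0 litter for 24 of the 34. NDP10.2 and NPD9.2 had 22.6% and 24.6% of their reads on genes, against 30.9% to 34.8% in the other 6 libraries.

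**Figure D1:**
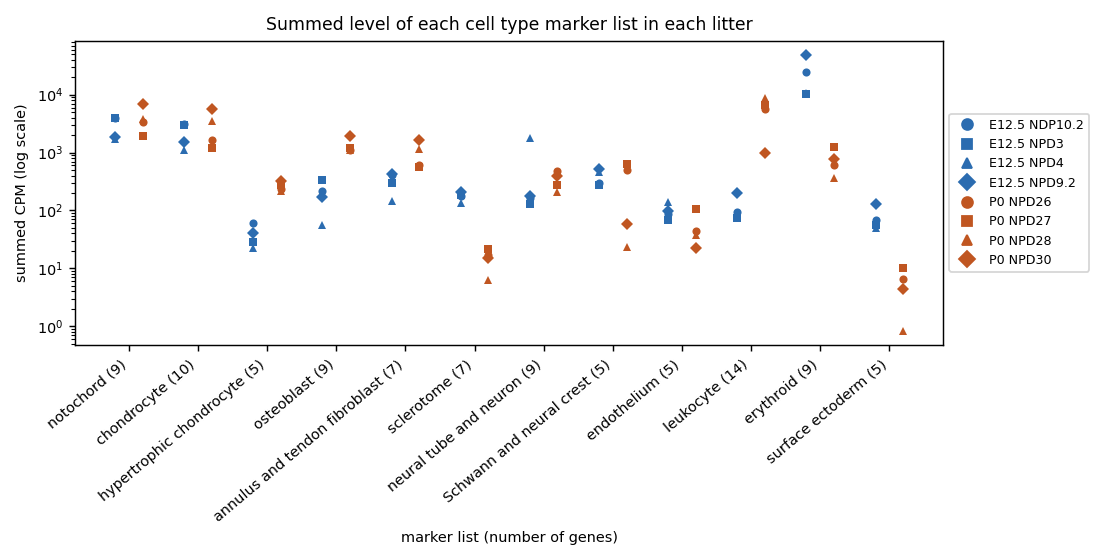
Summed CPM (log scale) of each fixed list of cell type markers in the 8 litters, E12.5 in blue and P0 in orange, with 1 symbol per litter and the number of genes in brackets. The osteoblast, hypertrophic chondrocyte, annulus and tendon, and leukocyte lists lay above all E12.5 litters in all P0 litters, and the sclerotome, surface ectoderm and erythroid lists lay below them.

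The collagens were redistributed between the stages rather than moved together. Of the 34 members that passed the filter on low counts, 7 were higher and 14 lower at P0, and 13 did not pass the test. Across all genes tested, 16.0% were called higher and 12.0% lower, so the share of members called higher, 20.6%, was near the background and the share called lower, 41.2%, was above it. The median log2 fold change of the 34 was −0.58, against 0.04 over all genes tested. The same 7 and 14 members were those whose litters did not overlap between the stages, a separation that 15.5% of all genes showed upwards and 14.4% downwards. The 7 were type I (Col1a1, Col1a2), Col5a3, Col6a1, Col6a2, Col10a1 and Col22a1, and the 14 included all genes of type IX. With NDP10.2 and NPD9.2 both left out, a choice made after seeing the data, 6 were higher and 10 lower, and with NPD30 as the only P0 litter 6 were higher and 4 lower.

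**Figure D2:**
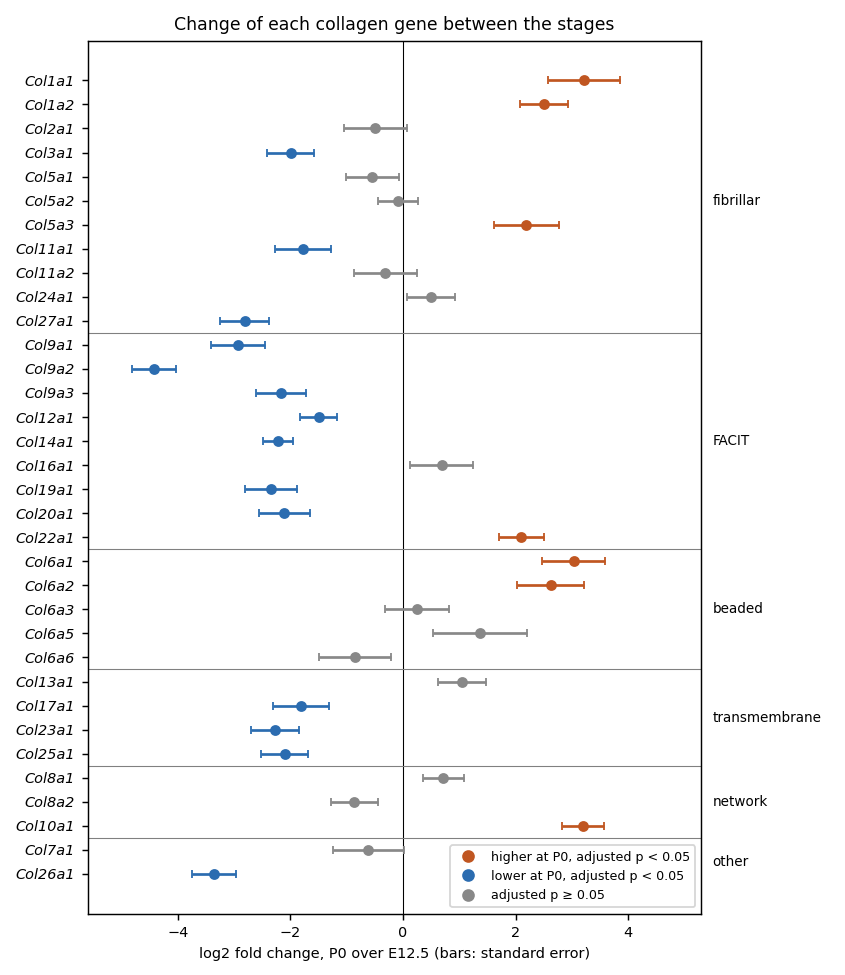
Log2 fold change of each tested member, P0 over E12.5, with its standard error, grouped by class and coloured by call. Points run from −4.43 for Col9a2 to 3.21 for Col1a1, and 7 of 9 FACIT genes and 3 of 4 transmembrane genes lie on the lower side.

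**Figure D3:**
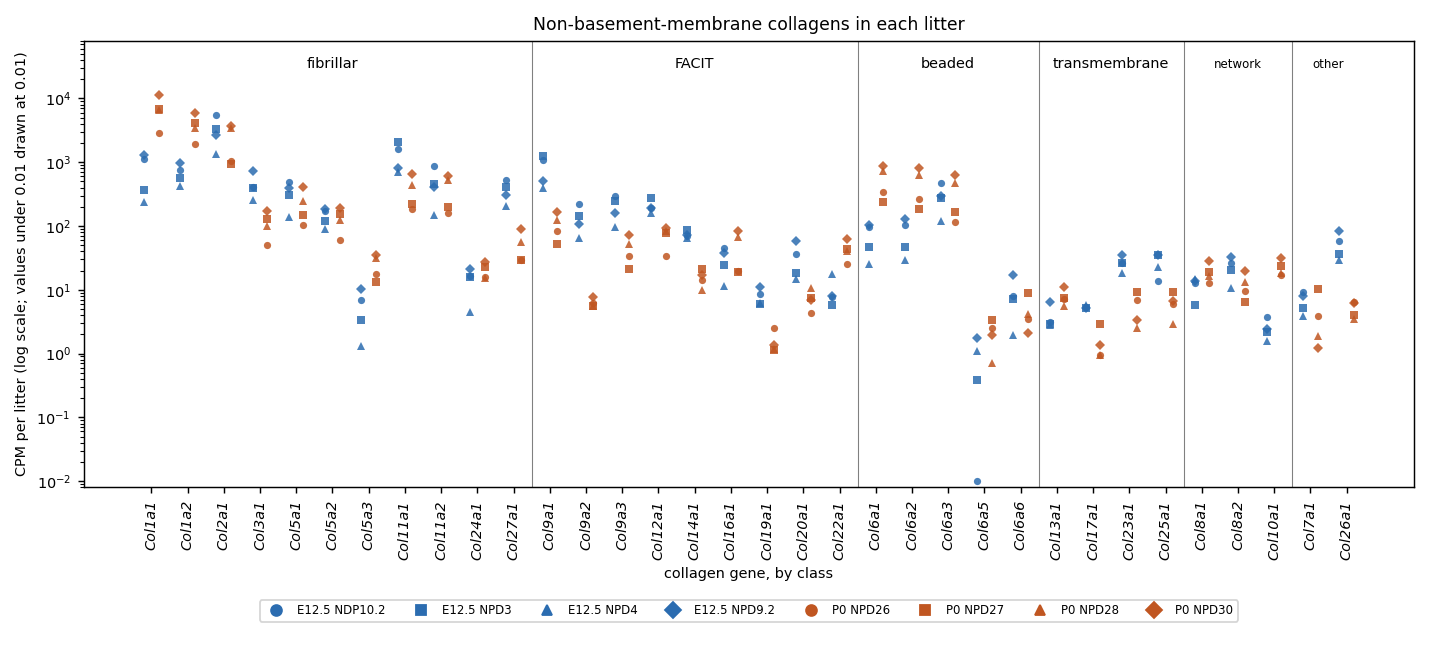
CPM of each tested member in each litter on a log scale, E12.5 in blue and P0 in orange, with 1 symbol per litter. Col1a1 spans 235 to 1272 CPM in the E12.5 litters and 2845 to 11487 CPM in the P0 litters, whereas the Col2a1 litters overlap.

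Among the fibrillar collagens, 3 were higher, 3 lower and 5 did not pass the test. Col1a1 (ENSMUSG00000001506.10, chr11:94936224-94953042, plus strand, GRCm38), which encodes the chain present in excess in type I collagen, was at 1131, 365, 235 and 1272 CPM at E12.5 and 2845, 6890, 6643 and 11487 CPM at P0. Every P0 litter lay above every E12.5 litter, and the log2 fold change was 3.21 ± 0.64 (SE, adjusted p = 0.00402), or 9.28-fold. Its partner chain Col1a2 (ENSMUSG00000029661.12, chr6:4504814-4541544, plus strand) was at 744, 571, 419 and 959 CPM at E12.5 and at 1910, 4100, 3422 and 5914 CPM at P0. It was 5.70-fold higher, with a log2 fold change of 2.51 ± 0.43 (adjusted p = 0.00188). Both type I genes kept their call with any single litter left out.

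Col2a1 (ENSMUSG00000022483.12, chr15:97975602-98004695, minus strand), the type II chain, was at 5423, 3330, 1336 and 2675 CPM at E12.5 and at 1031, 923, 3473 and 3664 CPM at P0. The litters overlapped, and the log2 fold change of −0.49 ± 0.56 did not pass the test (adjusted p = 0.558). Within P0, NPD28 and NPD30 lay above NPD26 and NPD27. Col11a1, a type XI chain of the same fibril, was at 1586, 2100, 702 and 802 CPM at E12.5 and at 188, 219, 444 and 660.2 CPM at P0. Its log2 fold change was −1.78 ± 0.49 (adjusted p = 0.0207), but the call held in only 4 of the 8 fits that left out a litter. NDP10.2, NPD3, NPD26 and NPD27 each ended it when left out, with adjusted p up to 0.0593. Col11a2, the other type XI gene, overlapped between the stages at 148 to 871 CPM and 162 to 615 CPM (log2 fold change −0.31 ± 0.56, adjusted p = 0.721).

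Col3a1 (ENSMUSG00000026043.14, chr1:45311538-45349706, plus strand), the type III fibril of loose and young connective tissue, went down while type I went up. It was at 415, 399, 258 and 728 CPM at E12.5 and at 50.2, 126, 101 and 174 CPM at P0, which gives a log2 fold change of −1.99 ± 0.42 (adjusted p = 0.00514). Col27a1, a fibrillar chain of cartilage with the shorter repeat run given above, was at 525, 405, 202 and 302 CPM at E12.5. At P0 it was at 29.2, 29.1, 55.6 and 90.1 CPM, a log2 fold change of −2.81 ± 0.44 (adjusted p = 0.00128).

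Type V, which sets the diameter of type I fibrils, split by chain. Col5a1 ranged over 136 to 497 CPM at E12.5 and 103 to 411 CPM at P0, and Col5a2 over 91.2 to 185 and 60.9 to 195 CPM, and neither passed the test (−0.54 ± 0.48, adjusted p = 0.436, and −0.09 ± 0.36, adjusted p = 0.883, as log2 fold changes). The minor chain Col5a3 rose from 6.84, 3.32, 1.33 and 10.3 CPM to 17.6, 13.3, 31.0 and 35.5 CPM, a log2 fold change of 2.19 ± 0.57 (adjusted p = 0.0162). Its call ended when NPD3 was left out (adjusted p = 0.0560). Col24a1, a low fibrillar chain at 4.47 to 21.1 CPM at E12.5 and 15.2 to 27.0 CPM at P0, did not pass the test (log2 fold change 0.49 ± 0.43, adjusted p = 0.426).

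Of the 9 FACIT genes, 7 fell, 1 rose and 1 did not pass the test. Type IX, whose chains coat cartilage fibrils, fell in all 3 genes. Col9a1 was at 1081, 1254, 393 and 513 CPM at E12.5 and at 84.8, 51.2, 125 and 163 CPM at P0, 7.65-fold lower (log2 fold change −2.94 ± 0.48, adjusted p = 0.00158). Col9a2 (ENSMUSG00000028626.5, chr4:121039385-121055322, plus strand) was at 221, 142, 64.0 and 109 CPM at E12.5 and at 6.13, 5.62, 5.53 and 7.58 CPM at P0. This was the lowest fold change of any member, 21.5-fold lower (log2 fold change −4.43 ± 0.39, adjusted p = 8.69e-05), and the 4 P0 litters lay close together. Col9a3 was at 294, 249, 96.8 and 157 CPM at E12.5 and at 33.7, 21.2, 51.6 and 71.1 CPM at P0 (log2 fold change −2.16 ± 0.44, adjusted p = 0.00456). Of its exon bases, 6.07% overlap Tcfl5 on the opposite strand, and the strand setting of the counting is not given in the sources used here.

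The interfibrillar FACIT genes of tendon and dermis, Col12a1 and Col14a1, fell as well. Col12a1 was at 188, 277, 157 and 193 CPM at E12.5 and at 33.8, 77.4, 83.8 and 93.7 CPM at P0 (log2 fold change −1.50 ± 0.33, adjusted p = 0.00620). Col14a1 was at 68.4, 87.0, 64.1 and 71.1 CPM and then at 14.3, 21.1, 9.89 and 17.1 CPM (log2 fold change −2.22 ± 0.27, adjusted p = 0.000363). The litters of a stage were tight for Col14a1, and its SE was the smallest of the 9. Col20a1 was at 35.9, 18.3, 15.0 and 57.0 CPM and then at 4.25, 7.35, 10.6 and 6.82 CPM (log2 fold change −2.11 ± 0.46, adjusted p = 0.00616). Col19a1 lay at 6.05 to 11.1 CPM at E12.5 and at 1.15 to 2.52 CPM at P0 (log2 fold change −2.34 ± 0.46, adjusted p = 0.00380). Col22a1, a FACIT known from muscle-tendon junctions, was the member of the class that rose, from 7.78, 5.85, 17.6 and 8.11 CPM to 25.0, 43.1, 40.7 and 62.8 CPM (log2 fold change 2.10 ± 0.40, adjusted p = 0.00315). Col16a1 overlapped at 11.5 to 44.3 CPM and 19.0 to 84.0 CPM (log2 fold change 0.69 ± 0.56, adjusted p = 0.397).

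Type VI, the beaded class, split by chain. Col6a1 (ENSMUSG00000001119.7, chr10:76708792-76726168, minus strand) was at 95.3, 46.6, 25.3 and 103 CPM at E12.5 and at 345, 235, 737 and 885 CPM at P0, and rose 8.17-fold (log2 fold change 3.03 ± 0.55, adjusted p = 0.00304). Its neighbour on the chromosome, Col6a2 (ENSMUSG00000020241.9, chr10:76595762-76623630, minus strand), was at 102, 47.0, 29.4 and 129.8 CPM and then at 264, 183, 623 and 823 CPM (log2 fold change 2.62 ± 0.59, adjusted p = 0.00854). Its call was lost when no filter on low counts was applied (adjusted p = 0.052). The remaining chain of the classical filament, Col6a3, on chromosome 1, was at 469.9, 277, 118 and 289.9 CPM at E12.5 and at 114, 164, 473 and 619 CPM at P0, with overlapping litters and a log2 fold change of 0.25 ± 0.56 (adjusted p = 0.785). Col6a5 stayed at or under 3.32 CPM in every litter and Col6a6 at or under 17.2 CPM, and neither passed the test (log2 fold changes 1.37 ± 0.83, adjusted p = 0.249, and −0.85 ± 0.64, adjusted p = 0.354). Col6a4 did not pass the filter, with 17 reads over the E12.5 litters and 32 over the P0 litters.

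Among the network collagens, Col10a1 (ENSMUSG00000039462.4, chr10:34389981-34397085, plus strand), the marker of hypertrophic cartilage, was at 3.77, 2.15, 1.57 and 2.46 CPM at E12.5 and at 16.8, 23.4, 18.6 and 31.4 CPM at P0. It was 9.17-fold higher (log2 fold change 3.20 ± 0.38, adjusted p = 0.000322), close to the fold of Col1a1 from a far lower level. The type VIII genes, which form the lattice of the corneal Descemet's membrane, overlapped between the stages. Col8a1 was at 5.85 to 14.5 CPM and 12.6 to 28.5 CPM (log2 fold change 0.71 ± 0.36, adjusted p = 0.170) and Col8a2 at 10.5 to 32.7 CPM and 6.49 to 19.9 CPM (log2 fold change −0.86 ± 0.42, adjusted p = 0.154).

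The transmembrane collagens were all low, and 3 of the 4 fell. Col23a1 was at 26.4, 26.0, 18.3 and 35.7 CPM at E12.5 and at 6.92, 9.23, 2.47 and 3.34 CPM at P0 (log2 fold change −2.27 ± 0.43, adjusted p = 0.00323). Col25a1, needed for motor innervation of muscle, was at 13.9, 35.3, 23.0 and 34.4 CPM and then at 5.98, 9.23, 2.94 and 6.67 CPM (log2 fold change −2.10 ± 0.41, adjusted p = 0.00380). Col17a1, the hemidesmosomal collagen of skin, lay at 5.16 to 5.80 CPM at E12.5 and at 0.942 to 2.88 CPM at P0 (log2 fold change −1.81 ± 0.50, adjusted p = 0.0203). The summed level of 5 surface ectoderm markers, of which all 5 fell, was 50.2 to 131 CPM at E12.5 and 0.824 to 10.24 CPM at P0, and their part in the change of Col17a1 was not tested. Without NPD26 or NPD28 the call of Col17a1 was lost, with adjusted p up to 0.0577. Col13a1, at 2.78 to 6.39 CPM and 5.65 to 10.9 CPM, did not pass the test with all litters (log2 fold change 1.05 ± 0.43, adjusted p = 0.0925) and did without NPD9.2.

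Outside the classes, Col26a1, a small secreted collagen, fell from 58.3, 35.7, 29.5 and 83.1 CPM to 6.45, 4.04, 3.53 and 6.22 CPM (log2 fold change −3.35 ± 0.39, adjusted p = 0.000312). Col7a1, the anchoring fibril of skin, overlapped at 3.87 to 9.2 CPM and 1.21 to 10.1 CPM (log2 fold change −0.62 ± 0.63, adjusted p = 0.509). Col28a1 did not pass the filter, with 0 to 3 reads in each E12.5 litter and 8 to 17 in each P0 litter.

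Compared per kilobase of exon, the order of the collagens changed between the stages. Col2a1 led at E12.5 with a mean level of 345 ± 184 CPM per kb (SD, n = 4), above Col9a1 at 160 ± 83.2 in each of the 4 litters. Col1a1 (114 ± 80.2) and Col11a1 (102 ± 52.2) came next and could not be ordered, since each was above the other in 2 litters. At P0 Col1a1 led with 1061 ± 539 CPM per kb, followed by Col1a2 at 309 ± 134, Col2a1 at 246 ± 162 and Col6a1 at 126 ± 70.7. Col1a1 was above Col1a2 in all 4 P0 litters, but Col1a2 was above Col2a1 in only 3. The exons of Col1a2 span 12426 bases in the annotation and its longest transcript 5348, so its level per kb on that transcript would be higher. The same holds for Col2a1 (9243 and 5104 bases) and Col11a1 (12744 and 7667), and less so for Col1a1 (6563 and 5930). Close ranks, such as those of Col1a1 and Col11a1 at E12.5, can therefore depend on the length used.

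Type I made up 13.4%, 7.99%, 12.8% and 23.2% of the summed level per kb of the 36 genes at E12.5, against 62.4%, 80.1%, 58.5% and 67.0% at P0. Type II took 24.8% to 33.9% and then 5.80% to 17.1%, although Col2a1 itself was not called. Type IX took 15.2% to 28.2% at E12.5, then 1.01% to 2.92% at P0, and type XI 10.5% to 18.1% and then 2.69% to 5.11%. Type VI took 3.17% to 5.61% and 5.28% to 12.9%, the ranges overlapping through NPD27. These shares add up to a whole within a litter, so a rise of type I lowers the others, and they were not tested.

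**Figure D4:**
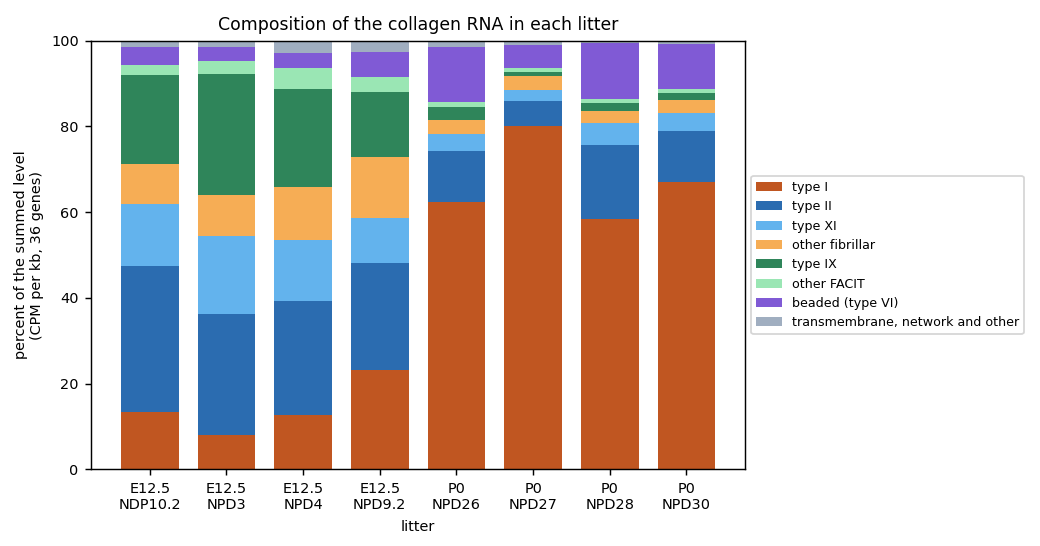
Share (percent) of each collagen type or class in the summed level per kb of exon of the 36 genes, 1 bar per litter. Type I takes at most 23.2% of a bar at E12.5 and at least 58.5% at P0.

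Ratios between chains do not depend on how much of a library is collagen. For 11 pairs that share a trimer, a fibril or a switch, the log2 ratio of reads per kb was compared between the stages in an exact permutation test (two-sided), whose smallest p with 4 litters a side is 0.0286. That smallest p was reached by 9 of the 11 pairs, with an adjusted p of 0.0349 over the 11. Several of these pairs set a member whose litters separated between the stages against one whose litters overlapped. How often other pairs of genes separate in this way was not computed, so the count of 9 has no background beside it. The widest shift was in Col3a1 to Col1a1, at 0.245, 0.732, 0.736 and 0.383 at E12.5 and 0.0118, 0.0123, 0.0102 and 0.0101 at P0. The 4 P0 litters were close together, and the mean log2 ratio was 5.42 lower at P0, a 42.8-fold change (exact permutation p = 0.0286). Here that p was fixed in advance, since every P0 litter was lower in Col3a1 and higher in Col1a1 than every E12.5 litter. Within type VI, Col6a3 to Col6a1 was at 1.80, 2.16, 1.70 and 1.03 at E12.5 and at 0.121, 0.255, 0.235 and 0.256 at P0, 7.79-fold lower. Col6a2 to Col6a1 moved far less, being 0.530 to 0.664 at E12.5, then 0.403 to 0.489 at P0.

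The cartilage fibril chains also shifted against each other. Col9a2 to Col9a1 went from 0.335, 0.185, 0.267 and 0.349 to 0.121, 0.184, 0.0739 and 0.0778, with NPD27 just below the lowest E12.5 litter, and was 2.59-fold lower. Col9a3 to Col9a1 went the other way, from 0.261 to 0.404 at E12.5 to 0.524 to 0.576 at P0. Col11a2 to Col11a1 rose from 1.02, 0.397, 0.390 and 0.945 at E12.5 to 1.60 to 2.22 at P0. Col11a1 to Col2a1 fell from 0.212, 0.457, 0.381 and 0.218 at E12.5 to 0.0928 to 0.172 at P0. In both pairs NPD3 and NPD4 lay apart from NDP10.2 and NPD9.2, the E12.5 litters with fewer reads on genes. Col5a3 to Col5a1 rose 7.72-fold and Col10a1 to Col2a1 13.1-fold.

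For the remaining pairs the litters overlapped. Col1a1 to Col1a2 was at 2.88, 1.21, 1.06 and 2.51 at E12.5 and at 2.82, 3.18, 3.68 and 3.68 at P0, with a mean log2 ratio 0.93 higher at P0 (exact permutation p = 0.0571, adjusted p = 0.0629). On the longest transcripts every one of these ratios would be lower, so they do not give the proportions of the chains. The lower E12.5 values were those of NPD3 and NPD4, and the higher those of NDP10.2 and NPD9.2, the litters with fewer reads on genes. Col5a2 to Col5a1 differed by 0.44 on the log2 scale (exact permutation p = 0.257, adjusted p = 0.257).

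**Figure D5:**
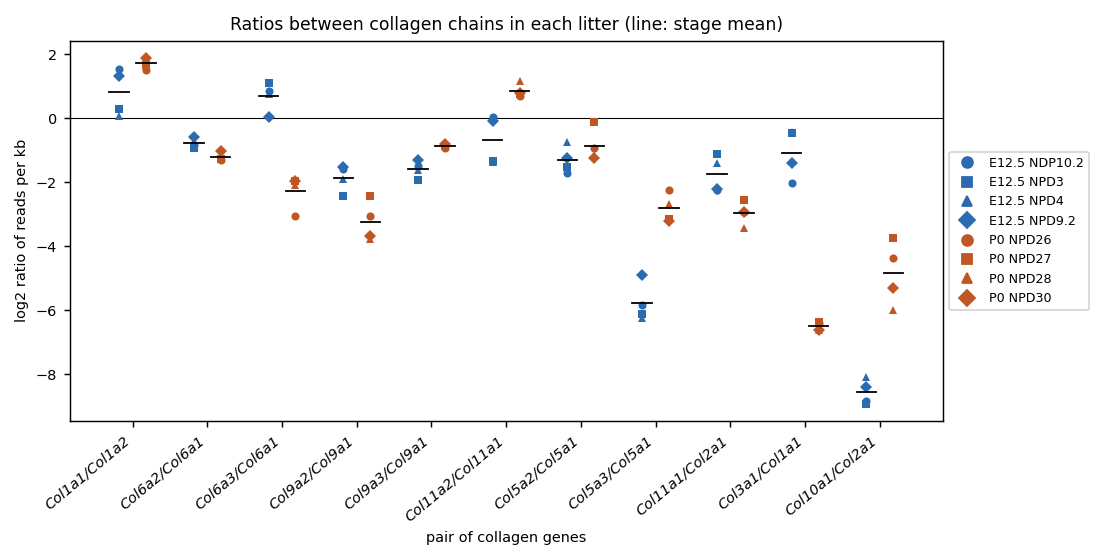
Log2 ratio of reads per kb for 11 pairs of collagen chains in each litter, E12.5 in blue and P0 in orange, with the stage mean as a line. The Col3a1 to Col1a1 points separate most widely, by 5.42 between the means, and the Col1a1 to Col1a2 and Col5a2 to Col5a1 points overlap.

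Markers of bone, hypertrophic cartilage and leukocytes moved with the collagens that rose. Of 9 osteoblast markers, 7 passed the filter and 6 rose, among them Ibsp, a bone sialoprotein, from no more than 0.390 CPM at E12.5 to 245 to 526 CPM at P0, and Sp7, a transcription factor of osteoblasts. Dmp1 had no read at E12.5, and the defining marker Bglap was at or under 1.30 CPM in every litter. The summed level of the list was 55.2 to 333 CPM at E12.5 and 1095 to 1900 CPM at P0. Of 5 hypertrophic chondrocyte markers, 4 passed and 3 rose, including Mmp13, which was at no more than 0.236 CPM at E12.5 and at 102 to 197 CPM at P0, and the summed level was 22.7 to 60.6 CPM and then 220.1 to 326 CPM. Ihh stayed at or under 2.46 CPM. All 14 leukocyte markers rose as well, with a median log2 fold change of 5.13 and a summed level of 74.5 to 199 CPM at E12.5 and 998 to 8938 CPM at P0. Whether the collagen reads that rose came from any of these cells, from the NDCs or from both was not tested.

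The sclerotome and erythroid marker lists moved with the collagens that fell. The annulus and tendon list was higher in sum in every P0 litter, and the other lists here overlapped in sum. All 7 sclerotome markers fell, from a summed level of 134 to 205 CPM at E12.5 to 6.24 to 21.5 CPM at P0, with Pax1 at 67.7 to 100.3 CPM and then at 1.18 to 3.75 CPM. Of 9 chondrocyte markers that passed the filter out of 10, 3 rose, 2 fell and 4 were not called, and the summed level overlapped at 1112 to 3178 CPM and 1189 to 5626 CPM. Of 7 annulus and tendon markers, 6 passed, 1 rose and 2 fell, the list summing to 147 to 434 CPM and 571 to 1648 CPM. Of 9 erythroid markers, 6 fell and none rose, the list summing to 10144 to 49398 CPM at E12.5 and 363 to 1248 CPM at P0. Of 5 Schwann and neural crest markers, 4 fell, although the summed level overlapped at 277 to 529 CPM and 23.4 to 643 CPM. Of 5 endothelial markers 1 fell, as did 1 of the 6 neural markers that passed, and no other member of either list was called. The part of all these cells in the collagen changes was not tested.

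A fixed list of 32 genes for collagen hydroxylation, folding, secretion, cleavage and crosslinking was read against all genes tested, of which 16.0% rose and 12.0% fell. Of the 30 that passed the filter, 4 rose and 3 fell, shares near those of all genes, and the median log2 fold change was −0.13. Lox, which crosslinks fibrils, rose from 18.6, 20.5, 11.1 and 38.1 CPM to 67.9, 107, 71.8 and 125 CPM (log2 fold change 2.08 ± 0.38, adjusted p = 0.00252). Pcolce2 (2.05 ± 0.49, adjusted p = 0.00948) and Pcolce (1.24 ± 0.41, adjusted p = 0.0433), enhancers of procollagen C-proteinase, and the prolyl 3-hydroxylase P3h2 (1.17 ± 0.40, adjusted p = 0.0482) rose on the same log2 scale. P3h3 (−1.50 ± 0.31, adjusted p = 0.00461), the C-proteinase Bmp1 (−1.04 ± 0.30, adjusted p = 0.0231) and the collagen chaperone Serpinh1 (−1.19 ± 0.34, adjusted p = 0.0222) fell. The calls of Lox, Pcolce2 and P3h3 held in all 8 fits that left out a litter, those of Serpinh1 and Bmp1 in 4, and those of Pcolce and P3h2 in 2.

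Among 15 collagen receptors and transcription factors of collagen genes, 3 rose and 3 fell, beside 16.0% and 12.0% of all genes tested. The fibrillar collagen receptor Ddr2 (log2 fold change 1.72 ± 0.45, adjusted p = 0.0160) and the integrin chain Itga1 (2.26 ± 0.42, adjusted p = 0.00307) rose, as did Sp7 (4.31 ± 0.31, adjusted p = 4.18e-05). The integrin chain Itga11 (−1.41 ± 0.46, adjusted p = 0.0394), the cartilage factor Sox5 (−1.99 ± 0.43, adjusted p = 0.00651) and the tendon factor Scx (−1.31 ± 0.36, adjusted p = 0.0186) fell, Itga11 in only 2 of the 8 fits that left out a litter. Sox9, which drives Col2a1 and Col9a1, was at 782, 712, 431 and 527 CPM at E12.5 and at 134, 128, 258 and 524 CPM at P0. NPD30 overlapped the E12.5 litters, and the log2 fold change of −1.23 ± 0.45 missed the threshold (adjusted p = 0.0636). Without NPD30 it passed (adjusted p = 0.00210). Sox6 and Runx2 did not pass the test, at −0.24 ± 0.42 (adjusted p = 0.715) and −0.40 ± 0.36 (adjusted p = 0.438).

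Promoters of the members were read from RefSeq on GRCm38.p6 as the 250 bases before each start, which were held for 28 of the 36 members. Col1a1, Col2a1, Col5a2, Col9a3, Col12a1, Col14a1, Col22a1 and Col26a1 had no entry. Col6a2 and Col9a1 had 2 entries each, and a member was counted where any of its entries held the letters. The letters of 5 known promoter motifs were searched on both strands, and no site overlaps another in the sequences shown. The TATA box, spelled TATAAA, was held by 5 of the 28 members, against 12.4% of 32851 promoters. It was held by 1 of 5 members called higher, 2 of 10 called lower and 2 of 11 tested but not called. The GC box, spelled GGGCGG, was held by 17 members, against 32.7% of promoters. Its share was largest in the members tested but not called, at 8 of 11, beside 3 of 5 called higher and 5 of 10 called lower. The CCAAT box, whose letters are its name, was held by 9 members (33.8% of promoters). The core bound by SOX factors, searched as ACAAAG, was held by 4 members (16.5% of promoters), and that of RUNX factors, searched as ACCACA, was held by 2 (14.05%). Col3a1 and Col10a1, which moved in opposite directions, both held the TATA box, beginning 117 and 32 bases before the start, and the SOX core, 176 and 185 bases before it. Col5a3 held the CCAAT box 122 bases and the GC box, on the reverse strand, 63 and 41 bases before the start, without the other motifs. Capitals mark these matches, which are letters in a window and not measured sites.
Col3a1, plus strand, chr1:45311288-45311537: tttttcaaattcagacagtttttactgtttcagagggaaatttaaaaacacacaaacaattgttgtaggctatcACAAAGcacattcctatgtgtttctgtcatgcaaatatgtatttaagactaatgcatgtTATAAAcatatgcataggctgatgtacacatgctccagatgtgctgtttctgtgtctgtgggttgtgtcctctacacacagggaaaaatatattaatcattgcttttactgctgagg
Col10a1, plus strand, chr10:34389731-34389980: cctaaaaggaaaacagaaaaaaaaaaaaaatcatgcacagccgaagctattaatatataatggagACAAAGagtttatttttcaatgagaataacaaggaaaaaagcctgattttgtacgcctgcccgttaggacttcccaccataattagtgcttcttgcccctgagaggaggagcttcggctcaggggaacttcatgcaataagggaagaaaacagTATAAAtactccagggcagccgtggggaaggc
Col5a3, minus strand, chr9:20815068-20815317: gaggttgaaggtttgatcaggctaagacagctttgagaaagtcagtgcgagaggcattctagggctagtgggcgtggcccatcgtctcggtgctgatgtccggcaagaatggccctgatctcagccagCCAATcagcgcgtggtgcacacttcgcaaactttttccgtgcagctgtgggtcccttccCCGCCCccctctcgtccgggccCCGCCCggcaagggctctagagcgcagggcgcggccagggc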

How the data were processed

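The authors deposited 1 file of raw counts per sample: reads of 100 bp from TotalScript libraries were aligned to GRCm38 with STAR and counted per Gencode M4 gene with htseq-count (the strand setting is not given in the sources used here). The submitters' processing notes also name CASAVA 1.8.2, STAR 2.4.0j and the build mm9. Summary lines were left out (7.07% to 17.5% of reads were ambiguous, 22.7% to 29.5% on no feature and 26.3% to 33.7% not uniquely aligned), and 884 identifiers matched no symbol. Genes were filtered with filterByExpr (minimum count 10, total 15), normalised by TMM and tested with the quasi-likelihood test of edgeR 4.0.16 in R 4.3.3, with Benjamini-Hochberg adjusted p. The SE is the absolute log2 fold change divided by the square root of F. DESeq2 1.42.0 and limma 3.58.1 gave alternatives. Litters are separate pools, and no label pairs them between stages. Positions and exon lengths come from Gencode M21. Chain ratios had a pseudocount of 1 read. Every member was named, with values by litter for most of those where a stage mean reached 20 CPM or a called change exceeded 4-fold. Col5a1, Col5a2, Col8a2, Col11a2, Col16a1, Col19a1 and Col24a1 also met this rule but were given by range. Members, gene lists and tests were chosen with earlier results of these data known.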

Additional observations from a re-analysis of the deposited data

Results flagged for a closer look

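In 3 of 116 sets of 4 litters (the CPM of each member, the chain ratios and the class shares, at each stage) the highest or lowest litter lay apart from the other 3 by more than Dixon's 95% critical value, where chance flags about 1 in 20. Col13a1 at E12.5 was at 6.39 CPM in NPD9.2 and at 2.78 to 3.07 CPM in the other litters. It passed the test when that litter was left out. Col19a1 at P0 was at 2.52 CPM in NPD26 (16 reads) and at 1.15 to 1.36 CPM in the others (8 to 10 reads, few but above the floor of 3 reads). The log2 ratio of Col6a3 to Col6a1 at P0 was −3.05 in NPD26 and −2.09 to −1.97 in the others, and all 4 lay below the E12.5 litters.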

How the results depend on the processing

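The counts of 7 members higher and 14 lower stayed at 7 and 14 with DESeq2 size factors, upper quartile factors, DESeq2's Wald test, limma-voom, counts thinned to the smallest library, blood and mitochondrial genes left out before TMM, and a fold change over 2 as a further criterion. With no filter on low counts Col6a2 lost its call, which left 6 and 14. Upper quartile factors moved the median log2 fold change of all genes by −0.15. Leaving out 1 litter gave 6 to 9 higher and 12 to 14 lower members, and 3612 to 4529 calls over all genes against 4321. Col28a1 entered the test in 5 of these fits and was called in those without NDP10.2, NPD9.2 or NPD30. After the data had been seen, the E12.5 litters NDP10.2 and NPD9.2 were both left out. This gave 2581 calls in all, and 6 higher and 10 lower members, with the calls of Col3a1, Col11a1, Col17a1, Col20a1 and Col22a1 lost. NPD30 alone against E12.5, with the lone litter assumed to vary like those of E12.5, gave 1054 calls in all, and 6 higher and 4 lower members. No paired analysis was possible because the labels share no replicate number between the stages.

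Sign changes occurred only among members and genes that were not called. Col2a1 was at 0.26 and Col5a1 at 0.37 with NPD30 alone, and Col5a1 at 0.023 without NDP10.2 and NPD9.2. Col5a2 was at 0.04 without NPD9.2, 0.16 without NPD26 (and −0.36 without NPD30), 0.31 without NDP10.2 and NPD9.2 and 0.51 with NPD30 alone. Col6a3 was at −0.02 without NPD4 and, over the fits without 1 litter, between −0.25 and 0.55, and Col6a6 at 0.012 without NDP10.2 and NPD9.2. Col11a2 was at 0.13 without NDP10.2 (and −0.69 without NPD30), 0.30 without NDP10.2 and NPD9.2 and 0.45 with NPD30 alone, where Sox6 was at 0.72 and Runx2 at 0.012, all as log2 fold changes. Sox9 was called with upper quartile factors, DESeq2 and limma-voom. Without a length correction, the P0 minus E12.5 share was 10.6 percentage points for the fibrillar class against 17.2, −13.5 for FACIT against −22.3, −10.6 for type IX against −19.9 and −13.5 for type XI against −10.3. The length of the longest transcript cancels in the difference of a chain ratio, and a pseudocount of 0.5 read changed no call of a pair. Members under 10 CPM rest on few reads, and counting error limits them most.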
